A study of Mus musculus with 6 samples.

Results

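The subject here is the genes of the NMDA receptor subunits, followed across 6 bulk RNA-seq libraries of mouse brain. The members are Grin1, Grin2a, Grin2b, Grin2c, Grin2d and Grin3a, taken by symbol, 6 of 78298 gene identifiers in the deposited table of normalised counts and all measured in every library. Each library was made from left brain tissue of a male mouse, and no mouse was given a compound. Wild-type mice gave 3 libraries, and 3 came from mice homozygous for an allele with lowered Top2b (topoisomerase II beta). In that allele the coding sequence opens with the tag AID, an auxin-inducible degron inserted by CRISPR/Cas9. No degron-activating compound or auxin receptor is named in the labels. The protocols put tissue collection at 10 weeks of age and the series text at 3.5 months. The study asked how lowered Top2b alters the adult brain transcriptome. The library names split the samples in another way: replicate 3 of each genotype has a name starting with N22, and the name of the Top2b-low one ends in dNdN where the other 2 Top2b-low names end in Homo. Neither mark is explained in the labels.

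NMDA receptors are glutamate-gated cation channels that pass calcium and open only when glutamate and a co-agonist, glycine or D-serine, are bound and depolarisation has relieved a magnesium block. Each receptor joins obligatory GluN1 subunits (from Grin1), which bind the co-agonist, with GluN2 subunits (from Grin2a to Grin2d), which bind glutamate and set the kinetics and magnesium block of the channel, or with GluN3 subunits (from Grin3a and Grin3b), which bind glycine. In rodent brain Grin2b is prominent from before birth and in adult forebrain, Grin2a increases after birth, Grin2c is best known from cerebellar granule cells, and Grin2d from brainstem, diencephalon and some interneurons.

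Start-site windows from RefSeq (GRCm38.p6, 250 bases before to 50 after the start, all on the minus strand) are printed for the 3 members found in its table, Grin1, Grin2c and Grin2d, to show the sequence at which their transcripts begin. The capitals mark GC boxes, here GGGCGG searched on both strands with overlaps counted.
Grin1, chr2:25319138-25319437: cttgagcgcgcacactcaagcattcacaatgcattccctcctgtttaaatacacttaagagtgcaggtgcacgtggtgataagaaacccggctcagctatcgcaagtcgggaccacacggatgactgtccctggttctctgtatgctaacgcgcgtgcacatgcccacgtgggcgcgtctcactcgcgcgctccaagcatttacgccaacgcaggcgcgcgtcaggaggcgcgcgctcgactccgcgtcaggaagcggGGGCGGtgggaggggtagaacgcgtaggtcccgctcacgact
Grin2c, chr11:115267194-115267493: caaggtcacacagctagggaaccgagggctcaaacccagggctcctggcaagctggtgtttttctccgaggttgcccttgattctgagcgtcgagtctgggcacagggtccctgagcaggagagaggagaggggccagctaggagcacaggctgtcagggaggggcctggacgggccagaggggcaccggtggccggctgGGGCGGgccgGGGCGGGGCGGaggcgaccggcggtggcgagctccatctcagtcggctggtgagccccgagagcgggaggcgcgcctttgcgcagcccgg
Grin2d, chr7:45866632-45866931: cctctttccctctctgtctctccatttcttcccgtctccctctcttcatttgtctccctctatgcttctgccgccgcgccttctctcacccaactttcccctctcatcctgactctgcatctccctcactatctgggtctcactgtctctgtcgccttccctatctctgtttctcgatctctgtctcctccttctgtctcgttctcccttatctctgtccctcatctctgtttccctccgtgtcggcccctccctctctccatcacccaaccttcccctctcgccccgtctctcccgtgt
The Grin2c window had 3 GC boxes, a pair of them overlapping, and a GC content of 70.0%. The Grin1 window had 1 and 60.7% GC, and the Grin2d window 0 and 56.0% GC. Among 32851 windows of the same length, 35.7% held at least 1 GC box and 10.7% at least 3, and the median GC content was 52.7%. A match describes these letters and no more.

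Library totals ran from 16963067 to 35246703 reads, and both N22-named libraries were the deepest. Top2b read 2485 to 3160 normalised counts in the wild-type libraries and 1965 to 2314 in the Top2b-low libraries, with no overlap. In 3.04% of tested genes the Top2b-low libraries lay wholly lower. The log2 difference of Top2b was -0.42 (SE 0.11, limma unadjusted p = 0.00629, adjusted p = 0.99997), so the lowered gene itself did not pass. With an N22 term it passed by DESeq2 (adjusted p = 3.15e-05) but not by limma or edgeR (0.224 and 0.225). By N22 name Top2b was also called lower (-0.25, limma adjusted p = 0.0161). The N22-named libraries stood apart in their markers of cerebellar cells. Of 15 markers of cerebellar granule cells, 14 were lower there by the test described below and 0 higher. Their summed level was 11860 and 13525 normalised counts in the N22-named libraries against 37324 to 44219 in the other 4. None of the 15 was at 0 in any library, but Gabra6, which encodes a receptor subunit nearly limited to those cells, had 1 read in each N22-named library. Of 10 Purkinje cell markers 9 were lower and 0 higher, with sums of 34054 to 36380 against 61797 to 69126. The genotype difference of each member is therefore also given for the 4 libraries outside N22. In bulk tissue, fewer cells of a type and less RNA per cell cannot be told apart.

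Compared per length, Grin1 stood highest in all 6 libraries. Divided by its longest coding transcript, it measured 2160 ± 106 normalised counts per kb (SD, n = 6), against 320 ± 116 for Grin2c, 307 ± 42.4 for Grin2b, 228 ± 25.5 for Grin2a, 137 ± 15.3 for Grin3a and 87.7 ± 11.9 for Grin2d. The ranges of Grin2c and Grin2b overlapped, and their order followed the N22 names. Grin2c was the higher in the 4 libraries outside N22, at 360 to 444 against 228 to 350. It was the lower in the N22-named libraries, at 173 and 179 against 296 and 328. The ranges of Grin2b and Grin2a overlapped as well. The ranges of the remaining neighbours were apart. The place of Grin2b rested on the length chosen, since its longest coding transcript has 24060 bases and its coding sequence 4446. Per kb of coding sequence the levels were 3211 ± 158 for Grin1, 1662 ± 229 for Grin2b, 759 ± 85.0 for Grin2a, 422 ± 153 for Grin2c, 301 ± 33.7 for Grin3a and 120.1 ± 16.3 for Grin2d. On that scale Grin2b stood apart above Grin2a, and the ranges of Grin2c and Grin3a overlapped. Grin1 made up 66.7% of the summed per-length level of the 6 genes with the longest transcript and 49.7% with the coding sequence.

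**Figure D1:**
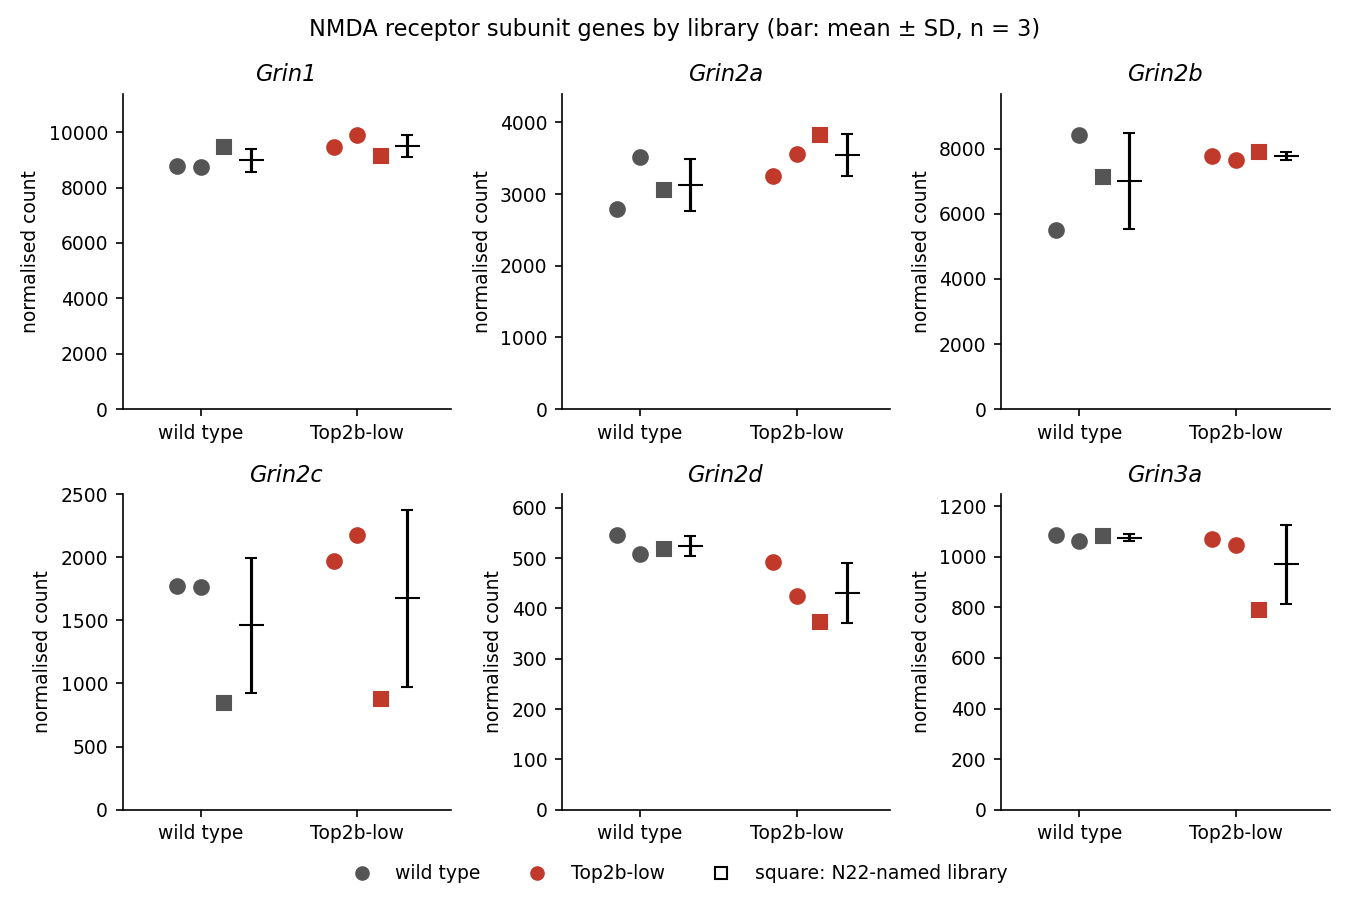
Normalised counts of each member (vertical axes start at 0) in the 6 libraries, points by genotype with the N22-named libraries marked. Both N22-named libraries lie below the other 4 for Grin2c (846 and 875 against 1763 to 2175), and the Top2b-low libraries lie below the wild-type ones for Grin2d (373 to 492 against 508 to 545).

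Grin1 (ENSMUSG00000026959, chromosome 2), the subunit present in every NMDA receptor, was also the steadiest of the members. It read 8762, 8732 and 9457 normalised counts in wild-type replicates 1, 2 and 3 and 9448, 9907 and 9121 in the Top2b-low replicates. The groups overlapped, and the highest library exceeded the lowest 1.13-fold. Wild type averaged 8984 ± 410 and Top2b-low 9492 ± 395 (SD, n = 3 each), a difference of 0.08 on the log2(normalised count + 1) scale used for all tests (SE 0.07, adjusted p = 0.99997 by limma over 17391 genes). Outside N22 both Top2b-low libraries lay above both wild-type ones, at a log2 difference of 0.15 (SE 0.06, limma unadjusted p = 0.0497, adjusted p = 0.951). In that fit 818 of the 17391 genes had an unadjusted p under 0.05. Between the N22-named libraries and the other 4 the difference was 0.01 (SE 0.06, limma adjusted p = 0.893). The antisense gene Grin1os shares 1307 exon bases with Grin1 on the opposite strand and read 3.6 to 17.2 normalised counts. The libraries were stranded, but whether counting used strand is not stated.

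Grin2a (ENSMUSG00000059003, chromosome 16), the GluN2 gene that gains ground after birth, read 2797, 3519 and 3062 normalised counts in the wild-type libraries and 3250, 3556 and 3828 in the Top2b-low libraries. Wild-type replicate 1 was lowest and Top2b-low replicate 3 highest, and the groups overlapped. Means of 3126 ± 365 and 3544 ± 289 (SD, n = 3 each) gave a log2 difference of 0.18 (SE 0.11, 95% interval -0.07 to 0.43, limma unadjusted p = 0.126), and of 0.12 outside N22 (SE 0.11). Between the N22-named libraries and the rest it was 0.07 (SE 0.09, limma adjusted p = 0.622).

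Grin2b (chromosome 6), whose subunit has an intracellular tail that binds the kinase CaMKII, read 5492, 8427 and 7126 normalised counts in the wild-type libraries and 7760, 7641 and 7891 in the Top2b-low libraries. Wild-type replicate 1 lay below the other 5, and the Top2b-low values fell inside the wild-type range. The means were 7015 ± 1470 and 7764 ± 125 (SD, n = 3 each), a log2 difference of 0.17 (SE 0.15, 95% interval -0.17 to 0.51, limma unadjusted p = 0.284), and outside N22 it was 0.18 (SE 0.16). Without wild-type replicate 1 the difference was 0.0026. Grin2b and Grin2a have transcripts of over 10 kb. The 382 tested genes with such transcripts had a median level, centred on each gene's mean, of 0.0015 log2 units in wild-type replicate 1 against 0.078 to 0.14 in the other 3 libraries outside N22, and of -0.17 and -0.15 in the N22-named ones. Its part in the low Grin2b value of that library was not tested. Between the N22-named libraries and the rest the log2 difference of Grin2b was 0.05 (SE 0.13, limma adjusted p = 0.803).

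Grin2c (chromosome 11), the GluN2 gene of mature cerebellar granule cells and also of some astrocytes, varied most. It read 1775, 1763 and 846 normalised counts in the wild-type libraries and 1974, 2175 and 875 in the Top2b-low libraries. Replicate 3 of each genotype, the N22-named pair, was far below the other 4 libraries, and the genotypes overlapped. The N22-named libraries averaged 860 ± 20.8 (SD, n = 2) and the other 4 averaged 1922 ± 195 (SD, n = 4), lower by 55.2%. The gap was 52.2% within wild type and 57.8% within Top2b-low. The log2 difference was -1.15 (SE 0.07, 95% interval -1.31 to -0.997, limma adjusted p = 3.54e-06). Grin2c was the only member called in this comparison, where 28% of the 17391 tested genes were called (16.7% lower, 11.3% higher), so 1 of 6 is not above the background. It was also the only member whose N22-named libraries lay wholly apart from the rest, as 49.3% of all genes did. Markers of several cell types moved with it: beside the granule and Purkinje cell lists, 6 of 12 astrocyte markers were lower and 0 higher, with sums of 65204 to 71866 normalised counts against 81966 to 84649. Of 10 thalamic markers 5 were called lower and 2 higher, and of 6 endothelial markers 3 lower and 1 higher. Other lists leaned upwards, with 6 of 12 forebrain excitatory markers higher and 1 lower, and 5 of 10 interneuron markers higher and 3 lower. The part of any of these cell types in the Grin2c difference was not tested.

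Because 1 N22-named library sat in each genotype, the spread of Grin2c within a genotype was wide, and its genotype difference of 0.17 had a 95% interval of -0.79 to 1.12 (limma adjusted p = 0.99997). With an N22 term in the model the same difference had an interval of 0.02 to 0.32 and an unadjusted p of 0.0290, with an adjusted p of 0.807 by limma. In that fit 1011 of the 17391 tested genes had an unadjusted p under 0.05. Among the 4 libraries outside N22 the Top2b-low pair lay above the wild-type pair, 1974 and 2175 against 1775 and 1763 normalised counts, a log2 difference of 0.23 (SE 0.08, limma adjusted p = 0.951). In the N22-named pair the Top2b-low library was 3.48% above the wild-type one. None of these values passed the test.

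**Figure D2:**
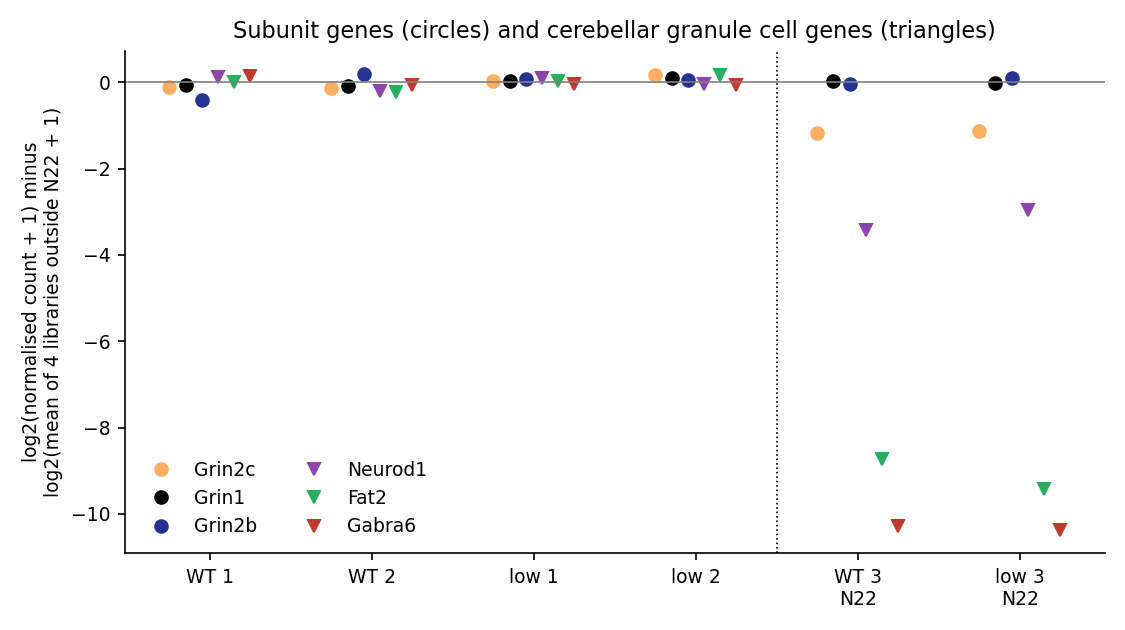
Levels of Grin2c, Grin1 and Grin2b beside the granule cell markers Neurod1, Fat2 and Gabra6 in the 6 libraries (horizontal axis). The vertical axis is log2(normalised count + 1) minus log2(mean of the libraries outside N22 + 1). Grin2c and the granule cell markers sit lowest in the N22-named libraries, while Grin1 is lowest in wild-type replicate 2 and Grin2b in wild-type replicate 1.

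Grin2d (chromosome 7), a GluN2 gene of brainstem, diencephalon and interneurons whose channels deactivate slowly, was the only member whose genotypes did not overlap. It read 545, 508 and 517 normalised counts in the wild-type libraries and 492, 424 and 373 in the Top2b-low libraries. The lowest wild-type value lay just above the highest Top2b-low value, and the N22-named Top2b-low library was lowest. Wild type averaged 523 ± 19.7 and Top2b-low 430 ± 59.7 (SD, n = 3 each), lower by 17.9%, and the log2 difference was -0.29 (SE 0.12, 95% interval -0.57 to -0.01). Its limma p was 0.0429 before adjustment and 0.99997 after it, so the difference did not pass. Groups did not overlap in 5.74% of all tested genes, and in 3.04% the Top2b-low libraries were the lower. The difference was 13.0% lower outside N22 and 27.8% lower within the N22-named pair. Without Top2b-low replicate 3 it was -0.20 on the log2 scale. The summed markers of thalamic neurons read 13606, 13239 and 10644 normalised counts in the wild-type replicates 1, 2 and 3 and 13060, 12478 and 9364 in the Top2b-low replicates, and those of GABAergic interneurons 30619, 28606 and 28802 against 29807, 28101 and 27712. Both sums overlapped between genotypes. Each was lower in Top2b-low at each replicate number, though the data do not single out replicates 1 and 2 as pairs. Each was also lowest in Top2b-low replicate 3, the library with the least Grin2d. The sum of oligodendrocyte markers did the same, 135499, 133344 and 120090 against 125883, 122815 and 113580. By gene, 3 of 10 thalamic and 6 of 10 interneuron markers had genotype values above 0. In each of these 2 lists 0 of 10 markers passed between genotypes, and none was at 0. Their part in the Grin2d difference was not tested. Grin2d shares 643 exon bases with the predicted gene Gm45441 on the opposite strand, which read 59.5 to 99.4 normalised counts and was highest in Top2b-low replicate 3. If counting did not use strand, reads of the pair cannot be told apart.

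Grin3a (chromosome 4), whose glycine-binding subunit lowers calcium flow through the receptor, read 1086, 1062 and 1082 normalised counts in the wild-type libraries and 1072, 1049 and 791 in the Top2b-low libraries. A single library, Top2b-low replicate 3, set the difference: the other 5 lay between 1049 and 1086. The means were 1076 ± 13.0 and 970.6 ± 156 (SD, n = 3 each), a log2 difference of -0.16 (SE 0.13, limma adjusted p = 0.99997), and outside N22 it was -0.02. The genotype difference in the N22-named pair minus that in the other libraries was -0.43 (SE 0.13), with a limma p of 0.00999 before and 0.997 after adjustment. That interaction passed for 0.023% of tested genes and for 0 of 6 members. Between the N22-named libraries and the rest Grin3a differed by -0.21 (SE 0.09, limma adjusted p = 0.126). Leaving out wild-type replicate 3, which makes Top2b-low replicate 3 the only N22-named library, gave -0.42. Leaving out Top2b-low replicate 3 instead gave 0.011. Grin3b, the remaining subunit gene, read 17, 15 and 7.8 normalised counts in the wild-type libraries and 7.4, 14.6 and 6.5 in the Top2b-low libraries. These are 6 to 14 reads per library, too few for a difference to be read, and Grin3b shares 1059 exon bases with Tmem259 on the opposite strand, which is far higher.

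Between genotypes, 0 of 6 members passed the test, as did 0% of the 17391 genes tested. Top2b itself did not pass either. Among the members Grin2d alone had an unadjusted p under 0.05, by limma and by edgeR's quasi-likelihood test, and 0 members did by DESeq2. With an N22 term, DESeq2 called 0 members and 0.0863% of all genes. Over all genes 262 had one by limma (1.51%), 250 by edgeR and 166 by DESeq2. The values lay above 0 for Grin1, Grin2a, Grin2b and Grin2c and below 0 for Grin2d and Grin3a, with a median of 0.12 beside -0.0021 over all genes. For the N22-named libraries the median of the members was -0.07 beside -0.0046. Leaving a library out turned the sign for Grin1, Grin2a, Grin2b and Grin3a in that comparison, so no direction is given for them.

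**Figure D3:**
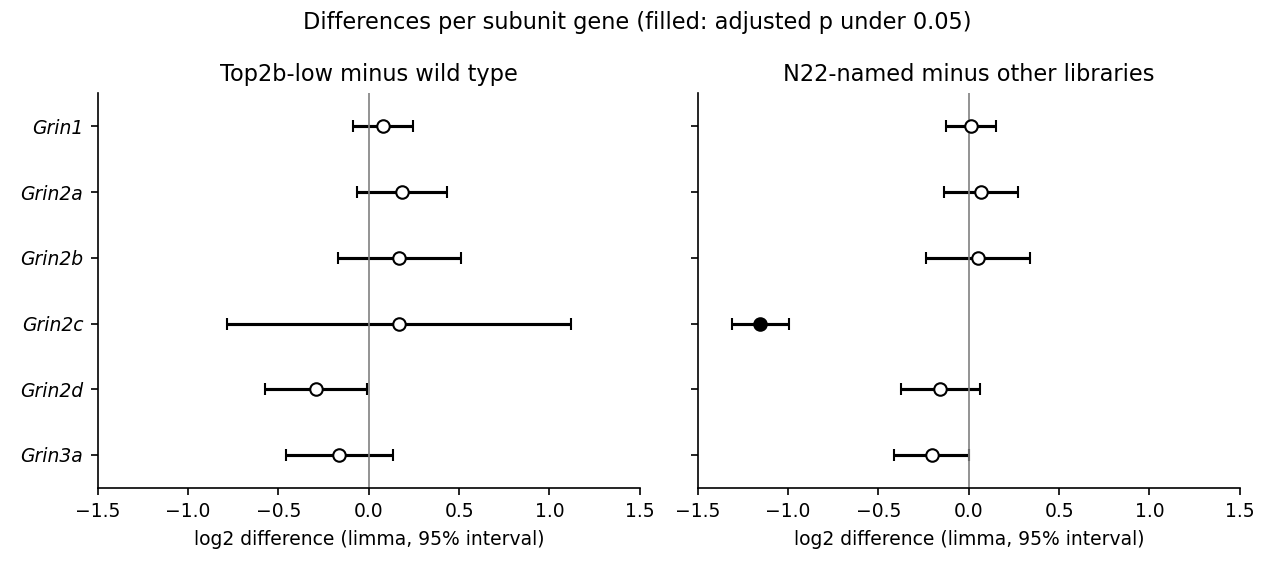
Log2 differences with 95% intervals (horizontal axis) for each member (vertical axis), for Top2b-low against wild type and for N22-named against the other libraries. The interval of Grin2c for the N22 names, -1.31 to -0.997, is the only called one, and that of Grin2d for genotype reaches from -0.57 to -0.01 without passing the adjustment.

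The make-up of the GluN2 pool was compared as each gene's share of the summed per-length level of Grin2a to Grin2d. Shares of messenger RNA are not shares of receptors. With the longest transcript, the Grin2c share was 41.1%, 34.5% and 22.3% in the wild-type libraries and 38.8%, 41.0% and 21.4% in the Top2b-low libraries. Both N22-named libraries were lowest, with a mean of 21.8% ± 0.693 (SD, n = 2) against 38.9% ± 3.10 (SD, n = 4). The Grin2b share ran the other way, 38.3% and 39.2% in the N22-named libraries and 25.9% to 33.5% in the rest, as did the Grin2a share, 27.1% and 31.2% against 21.4% to 23.0%. Each of these 3 splits had an exact permutation p of 0.0667, two-sided, the smallest that 2 libraries against 4 allow, and 0.117 after adjustment over 7 quantities. Since shares sum to a whole, a lower Grin2c share makes the others larger. Per kb of coding sequence the Grin2c share was 8.56% and 7.91% in the N22-named libraries and 14.4% to 19.2% in the rest, again without overlap.

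**Figure D4:**
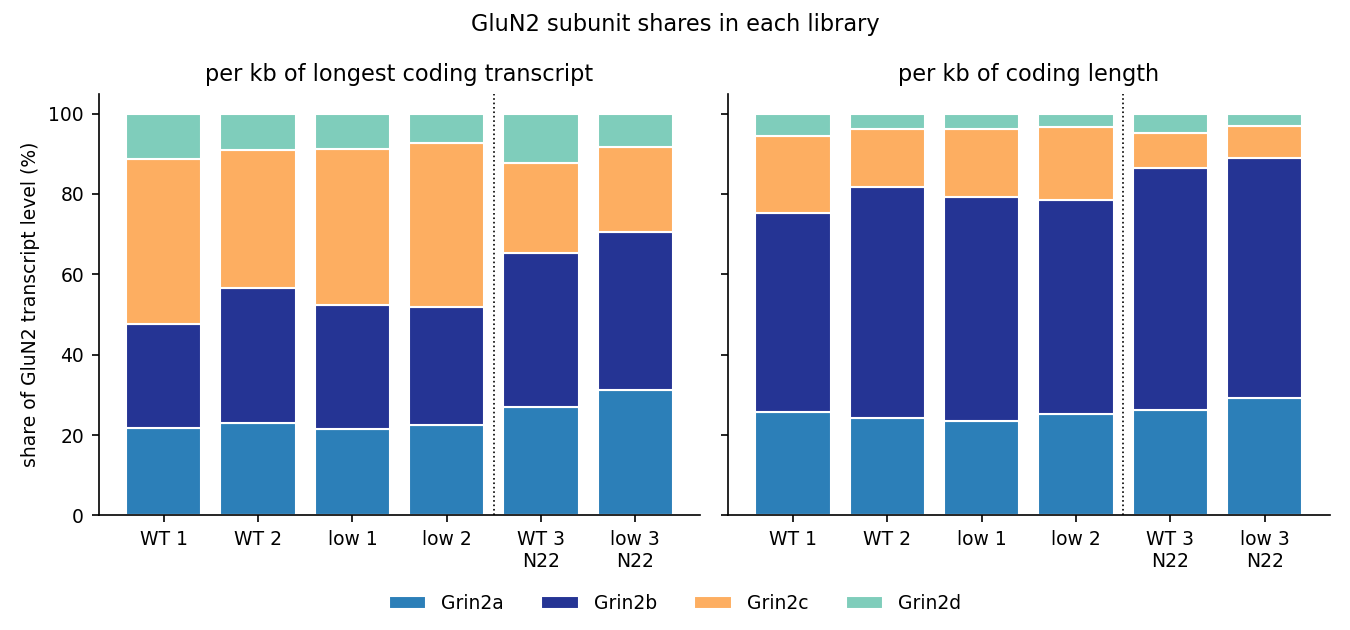
Stacked bars of the share of Grin2a, Grin2b, Grin2c and Grin2d in the summed GluN2 level per kb (vertical axis, percent, from 0) for each library, with the longest coding transcript and with the coding sequence as the length. The Grin2c share is smallest in the N22-named libraries under both lengths, while the Grin2b share depends on the length chosen.

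By genotype, the Grin2d share was 11.4%, 8.95% and 12.3% in the wild-type libraries and 8.73%, 7.20% and 8.21% in the Top2b-low libraries. These groups did not overlap, by a narrow margin, with means of 10.9% ± 1.74 and 8.05% ± 0.775 (SD, n = 3 each). The two-sided exact permutation p was 0.1, the smallest that 3 against 3 libraries allow, and 0.35 after adjustment over 7. With the other lengths the groups overlapped and the exact p was 0.2. The log2 ratio of Grin3a to Grin1, which does not depend on the length beyond a constant, was -3.82, -3.85 and -3.94 in the wild-type libraries and -3.95, -4.05 and -4.34 in the others. Here too the groups did not overlap (exact permutation p = 0.1, adjusted p = 0.35), and the gap between them was small. The other 5 quantities overlapped between genotypes, with exact p from 0.8 to 1 for the longest transcript. Among them, the log2 ratio of Grin1 to the GluN2 sum was 1.22, 0.97 and 1.52 in the wild-type libraries and 1.09, 1.1 and 1.35 in the others, highest in the N22-named library of each genotype with this length. Per kb of coding sequence it was 0.29, -0.12 and 0.31 against 0.065, 0.097 and 0.091, where Top2b-low replicate 2 was highest in its group. The N22-named libraries then overlapped the rest, and the N22 difference was 0.12 in place of 0.34.

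Only Grin2c ranged over more than 1 log2 unit across the libraries. Of 14253 other tested genes with a symbol, those nearest to its pattern, by the root mean square difference of centred log2 levels over the 6 libraries, were Trmt9b at 0.0710, Slco4a1 at 0.0791, Mmp24 at 0.0861, Fzd7 at 0.0954 and Cyp26b1 at 0.0995. All 5 were lowest in the N22-named pair: Mmp24 read 783 and 764 normalised counts there and 1430 to 1732 elsewhere. These likenesses are over 6 points that share the N22 split.

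Around the receptor, 4 lists of genes were read: scaffold and trafficking proteins, downstream signalling, supply of the co-agonists, and clearance of glutamate. By genotype 0 genes passed in any of them. Of 23 scaffold and trafficking genes, 19 had values above 0, with a median log2 difference of 0.10, and in 4 the Top2b-low libraries lay wholly above, as they did in 2.7% of all tested genes. Dlgap2, which links PSD-95 to the Shank proteins, read 845, 1013 and 1051 normalised counts in the wild-type libraries and 1058, 1185 and 1247 in the Top2b-low libraries. These groups were just apart (log2 difference 0.27, limma unadjusted p = 0.0488, adjusted p = 0.99997). Dlgap3, of the same family, read 4432 to 5054 against 5070 to 5568 (0.17, unadjusted p = 0.0719), and Shank1, a master scaffold of the postsynaptic density, 6616 to 7305 against 7501 to 7994 (0.15, unadjusted p = 0.0730). Of 25 signalling genes, 21 had values above 0, with a median of 0.06. Prkcb, a protein kinase C, read 7159 to 8130 normalised counts without the allele and 8142 to 9817 with it (0.24, unadjusted p = 0.0435). Camk2a, the calcium-calmodulin kinase that binds the GluN2B tail, overlapped between genotypes at 36985 to 49377 and 43995 to 57526 (0.29, unadjusted p = 0.0868), as did Prkca at 3149 to 3764 and 3581 to 4306 (0.17, unadjusted p = 0.139). Summed markers of forebrain excitatory neurons, in which much of this machinery is made, reached 32909 to 34899 normalised counts in the wild-type libraries and 34854 to 41076 in the others, and their part was not tested. Of 12 co-agonist genes 3 had values above 0, and of 6 clearance genes 4, with medians of -0.09 and 0.01. Srr, the serine racemase that makes D-serine, differed by 0.16, Shmt1, a glycine-forming enzyme, by 0.32 and Psat1, of serine synthesis, by -0.11. In the clearance list the values were -0.10 for Glul, glutamine synthetase, 0.12 for Slc1a2 and 0.06 for Slc1a3, and each of these 6 genes had an adjusted p of 0.99997 by limma.

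For the N22 names, the calls in these lists stand beside 11.3% of all tested genes called higher and 16.7% called lower. In the scaffold list 4 of 23 genes were called higher, 8 lower and 11 not at all, with a median log2 difference of -0.06. Homer3, the Homer protein of Purkinje cells, was at 250 and 282 normalised counts against 1161 to 1426 (log2 difference -2.29, limma adjusted p = 1.83e-07). Ephb2, a receptor tyrosine kinase that binds GluN1, averaged 379 ± 7.67 (SD, n = 2) against 674 ± 19.3 (SD, n = 4; -0.83, adjusted p = 4.88e-05). Lin7a, a small adaptor of receptor transport, was at 455 and 590 against 812 to 882 (-0.70, adjusted p = 0.000825). In the signalling list 11 of 25 were called higher, 2 lower and 12 not at all, with a median of 0.17, the lower ones being Nos1, the neuronal nitric oxide synthase, at -0.90 (adjusted p = 0.00018), and Camk2d at -0.54 (adjusted p = 0.000424). Ptpn5, a striatum-enriched tyrosine phosphatase, was higher by 0.38 (adjusted p = 0.000996).

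In co-agonist supply and glutamate clearance 0 genes were called higher in the N22-named libraries. Of 12 co-agonist genes 3 were called lower and 9 not at all, 4 of the 12 values lay above 0, and the median was -0.14. Dao, the D-amino acid oxidase that degrades D-serine, was at 5.92 and 9.96 normalised counts there and at 212 to 292 elsewhere (log2 difference -4.92, limma adjusted p = 3.5e-07). Slc6a9, the glial glycine transporter, was called too at -0.56 on that scale (1104 and 1357 against 1639 to 1940 normalised counts), and Ddo, which degrades D-aspartate, was at 163 and 218 against 223 to 327. In the clearance list 2 of 6 were called lower and 4 not at all, 2 of the values lay above 0, and the median was -0.10. The called ones were Slc1a6, the Purkinje cell glutamate transporter, and Slc1a3, the glial transporter prominent in cerebellum, at log2 differences of -2.29 and -0.48 (adjusted p = 4.28e-06 and 0.000364). Slc1a2, the main forebrain glial transporter, differed by -0.19 and did not pass (adjusted p = 0.0837). The part of the granule and Purkinje cell markers in these differences was not tested.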

How the data were processed

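The values are the authors' normalised counts, deposited as 1 table with a signal for each gene in each library. RSEM and mm39 are named per the submitters' processing notes. The aligner, versions, annotation and any use of strand in counting: not given in the sources used here. Per the labels' protocols, polyadenylated RNA was selected from 400 ng of RNA and built into stranded libraries. Each value, divided by the smallest one above 0 in its library, gave a whole number (100% of values, tolerance 1e-06), so the counts behind the table could be recovered for edgeR 4.0.16 and DESeq2 1.42.0. On the normalised scale 3 reads are worth 1.77 to 3.76. Sample titles gave the groups and replicate numbers, and libraries were taken as separate animals since the series text counts mice per genotype.

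Differences were tested with limma 3.58.1 (R 4.3.3, empirical Bayes with intensity trend, two-sided) on log2(normalised count + 1) for 17391 genes with a mean of at least 10, with Benjamini-Hochberg adjustment over all of them and a threshold of 0.05. This scale understates changes of low genes. The genotype model had no covariate, the N22 model had genotype as a term, and an interaction was fitted over the 6 libraries, its spread coming from the 4 outside N22 only. Proportions were compared by exact permutation over libraries, adjusted over 7 quantities. The fits were tested on simulated data: of 200 changed genes among 17391 for the genotype comparison, over 3 runs, 65.3% of those changed by 1 log2 unit and 94.3% of those changed by 2 were recovered, and 95.0% and 100% with an N22 term. False calls per run averaged 0.33 without that term and 14 with it. The changed genes were drawn from genes with a mean of at least 50, so recovery of lower genes was not measured. Changes under 1 log2 unit, where the genotype differences of the members lie, were not simulated.

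Symbols, chromosomes and transcript lengths came from GENCODE vM21 (GRCm38), which matched 51498 identifiers. The start-site windows came from RefSeq (GRCm38.p6), where 3 of 6 members matched. No coordinates of mm39 are given. Same-numbered libraries of the 2 genotypes deviated together (correlations 0.33, 0.35 and 0.68, all over 0.1), and a replicate block was fitted as an alternative. Outside N22, libraries of different number deviated together as well (0.37 and 0.24). The correlations therefore do not single out replicates 1 and 2 as pairs. Genes named were the members, Grin3b, Top2b, 3 of each receptor list per comparison by smallest unadjusted p, and the 5 most like any member ranging over more than 1 log2 unit. Gabra6, Neurod1, Fat2 and the overlapping genes were added after their values were seen, as were the length definitions and the group of long transcripts. The members and lists were chosen with earlier results of these data known. Alternatives covered pseudocounts of 0.5 and 5, a mean of at least 50, no filter, TMM, edgeR, DESeq2, other lengths, an N22 term, the libraries outside N22 and leaving out each library. The fits of edgeR and DESeq2 with a block or N22 term, and leaving out libraries in the interaction, were chosen after seeing the data.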

Additional observations from a re-analysis of the deposited data

How the results depend on the processing

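The call of Grin2c for the N22 names held under all 14 alternatives (log2 difference -1.24 to -1.06), and 0 members were called by genotype under any of the 20 alternatives run for each. The replicate block changed no call of a member, and the data do not single out its pairing of replicates 1 and 2. With it the genotype difference of Grin2d stayed -0.29 (interval -0.48 to -0.10, unadjusted p = 0.00746, limma adjusted p = 0.520). That of Grin2a stayed 0.18 (0.04 to 0.33, unadjusted p = 0.0192, adjusted p = 0.631) and that of Grin2c 0.17 (0.02 to 0.31, unadjusted p = 0.0282, adjusted p = 0.676). With the block, 1169 of the 17391 tested genes had an unadjusted p under 0.05 by limma, against 262 without it. Genotype calls over all genes were 15 with DESeq2 and the block, 15 with DESeq2 and the N22 term, and 0 to 1 leaving out each library (1 without Top2b-low replicate 1). N22 calls over all genes, 4864 with all libraries, were 1711 to 4576 leaving out each library, lowest without Top2b-low replicate 3 and at 1945 without wild-type replicate 3, and called members were 1 to 2. Interaction calls, 4 with all settings as described, were 2 with a pseudocount of 5, 9 with a mean of at least 50, 1 with edgeR and 23 to 117 leaving out a library.

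Leaving out each library turned some signs. The ranges were -0.19 to 0.58 for Grin2c by genotype, and by N22 name -0.085 to 0.11 for Grin1, -0.035 to 0.17 for Grin2a, -0.083 to 0.18 for Grin2b and -0.42 to 0.011 for Grin3a. The Grin2b interaction ran from -0.34 to 0.28. Genotype differences in share ran from -2.0 to 2.93 percentage points for Grin2a, -2.73 to 3.48 for Grin2b and -4.05 to 7.30 for Grin2c, in the log2 ratio of Grin1 to GluN2 from -0.19 to 0.087 and in that of Grin2a to Grin2b from -0.038 to 0.10. By N22 name the Grin2d share ran from -0.85 to 3.24 and the ratio of Grin2a to Grin2b from -0.070 to 0.10. Outside N22 the genotype differences were -0.43 for the Grin2a share, 0.0018 for the ratio of Grin1 to GluN2 and -0.063 for that of Grin2a to Grin2b. The cause was not tested.

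Mean shares over the 6 libraries moved with the length, by its construction. With the longest transcript they were 24.5% for Grin2a, 32.9% for Grin2b, 33.2% for Grin2c and 9.46% for Grin2d. With the mean over coding transcripts they were 19.7%, 58.3%, 16.1% and 5.88%. With the coding sequence Grin2b, Grin2c and Grin2d were 56.0%, 14.2% and 4.12%, and with no length 57.8%, 12.3% and 3.8%. The N22 difference of the Grin2d share, 1.2 points, became -0.10, -0.14 and -0.18 with those 3 lengths. With 3 mice a genotype, 1 of them N22-named, no member's genotype difference passed the adjustment over all tested genes, with or without the block. Grin3b, at 6 to 14 reads, is limited by depth.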
